A study of Mus musculus with 46 samples.

Results

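The comparison described here sets the response of primitive endoderm (PrE) cultures to one label, Virma cKO, against their response to another, siIgf2bp3, gene by gene. The series holds 46 RNA sequencing libraries of mouse extended pluripotent stem cells (EPSCs) and cells derived from them. Of these, 8 enter the comparison, chosen by their labels: all were EPSCs cultured in PrE-induce medium. The groups were genotype Virma_cKO, genotype WT, treatment siIgf2bp3 and treatment siNC, with 2 libraries each. The Virma pair and the siIgf2bp3 pair came in separate tables, so the responses share no control libraries. Each response was taken within its own table, cKO minus WT and siIgf2bp3 minus siNC, and the interaction is the Virma response minus the siIgf2bp3 response. Genes were then divided into those that passed the test in both responses in the same direction and those that passed in both in opposite directions. The labels name neither the driver of the Virma deletion, nor the siRNA sequence, nor a clone. Columns of the Virma table are marked as input. Libraries from Mettl3 cKO and WT cultures, from cells sorted as PrE-E (CD140+) or as EPI-E (CD140-), and from cultures without and with actinomycin D, which blocks transcription, served as further readouts.

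PrE is the blastocyst lineage that gives rise to the endoderm of the yolk sacs, while the neighbouring epiblast forms the embryo proper. It is specified by GATA factors and SOX17, lays down basement membrane, and takes up maternal nutrients. N6-methyladenosine (m6A) is written on mRNA by a complex in which METTL3 is the catalytic subunit and VIRMA a large scaffold subunit. IGF2BP3 is a cytoplasmic RNA-binding protein described as a reader of m6A that stabilises bound transcripts.

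Total counts ran from 8160276 to 12250333 per library, and 13902 genes joined on their symbols had enough counts to be tested. All tests were edgeR's quasi-likelihood test in a single fit over the 8 libraries, adjusted by Benjamini-Hochberg and called below 0.05. Changes are log2 values ± SE with n = 2 libraries per group, and levels are CPM, counts relative to library size, scaled with TMM factors, a level that is not corrected for gene length. Whether replicates came from separate cultures is not stated in the labels. The p-values therefore measure only the spread between these libraries, which may be technical. In bulk libraries, fewer cells of a type and less RNA per cell cannot be told apart. Table and perturbation coincide, so a kit or batch that acted on a response in only 1 table cannot be told apart from the label.

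The targeted genes were examined first. Virma had 78.7 and 63.5 CPM in cKO libraries, against 125 and 128 CPM in WT libraries. The cKO libraries lay below both WT libraries, at -0.83 ± 0.13 (adjusted p = 0.000138), and in the other table Virma was at 0.13 ± 0.14 (adjusted p = 0.682). Igf2bp3 had 99.9 and 95.1 CPM in libraries labelled siIgf2bp3, against 84.1 and 96.9 CPM in siNC libraries. The libraries labelled siIgf2bp3 were therefore not lower in Igf2bp3 RNA than siNC (0.11 ± 0.12, 95% interval -0.15 to 0.36, adjusted p = 0.722), and every direction below is that of the libraries labelled siIgf2bp3. In the Virma table the same gene had 45.1 and 51.8 CPM in cKO libraries, against 107 and 125 CPM in WT libraries, so that Igf2bp3 RNA fell under the Virma label (-1.26 ± 0.12) and the responses differed by -1.37 ± 0.17 (adjusted p = 2.92e-05). Igf2bp3 RNA was thus lower in cKO than in WT libraries and not detectably lower under its own siRNA label.

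The Virma response was the wider one. In cKO libraries 2299 genes rose (16.5% of those tested) and 2582 fell (18.6%), while in the libraries labelled siIgf2bp3 479 rose (3.45%) and 422 fell (3.04%). The SD of the log2 change over all genes was 1.08 for Virma and 0.537 for siIgf2bp3. Across the 13902 genes the responses had a Pearson r of 0.07 and a Spearman correlation of 0.01, a description over genes, which are not replicates. In all, 549 genes passed in both responses. Of these, 223 were lower in both (1.6% of genes tested) and 87 higher in both (0.626%), while 58 rose with Virma and fell with siIgf2bp3 (0.417%) and 181 fell with Virma and rose with siIgf2bp3 (1.3%). The genes lower in both made up 8.64% of the Virma list and 52.8% of the siIgf2bp3 list of fallen genes. The 181 genes made up 7.01% of the genes that fell with Virma and 37.8% of those that rose with siIgf2bp3. Of genes that rose with Virma, the 87 made up 3.78% and the 58 made up 2.52%. The 87 were 18.2% of genes that rose with siIgf2bp3, and the 58 were 13.7% of those that fell. Those 2 shares lay near the 16.5% of all genes that rose with Virma. The shares of 52.8% and 37.8% lay above the 18.6% that fell with Virma. No overlap was tested. The interaction passed for 3237 genes, positive for 1292 (9.29%) and negative for 1945 (14%).

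**Figure D1:**
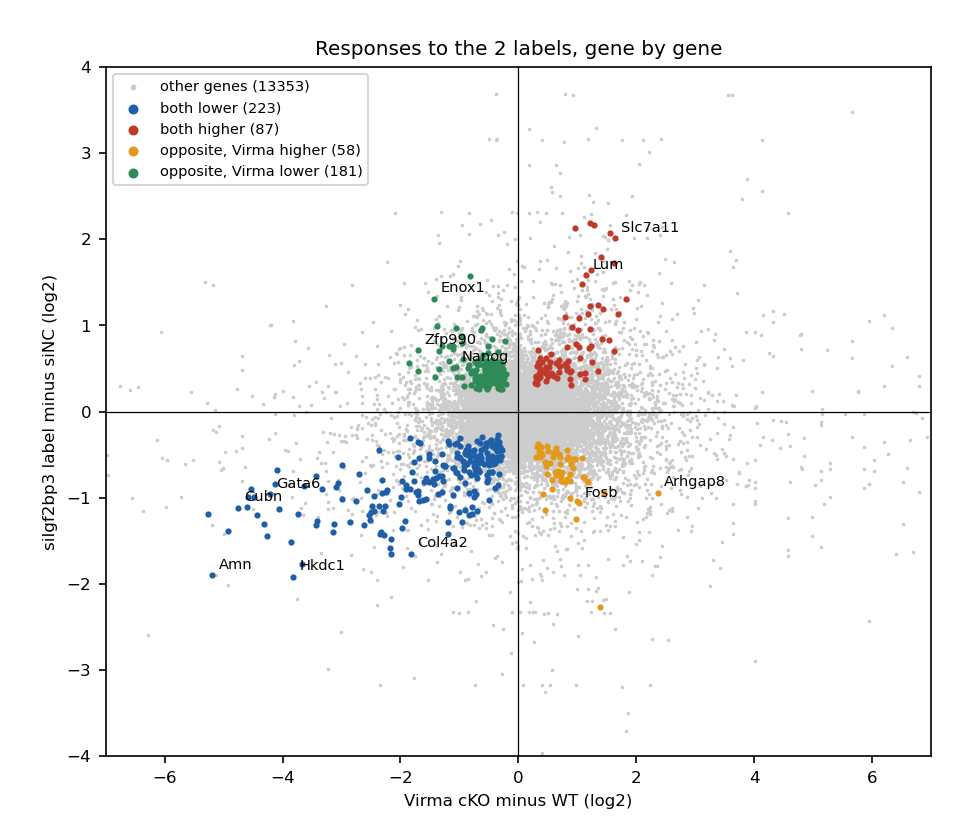
Each point is 1 of the 13902 genes tested, with its log2 change in Virma cKO minus WT libraries on the x axis and in siIgf2bp3 minus siNC libraries on the y axis, and 30 genes lie outside the axes. The 223 genes lower in both reach far to the left along the x axis, while the 58 and 181 genes with opposite calls stay near the centre.

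The transcription factors and receptor of PrE fell under both labels, and fell further with Virma. Of 10 tested PrE regulators, 10 fell with Virma and 9 with siIgf2bp3, with medians of -3.91 and -0.99, and 9 differed between the responses. The list was chosen with earlier results of these data known. List counts here and below stand beside shares of all genes tested. These were 16.5% rising and 18.6% falling with Virma, 3.45% and 3.04% with siIgf2bp3, and interactions of 9.29% positive and 14% negative. Gata6, which specifies PrE, had 5.07 and 5.88 CPM in cKO libraries, against 99.9 and 105 CPM in WT libraries, and 85.2 and 87.1 CPM in libraries labelled siIgf2bp3, against 186 and 149.9 CPM in siNC libraries. Neither pair of groups overlapped, and the difference of the responses was -3.26 ± 0.20 (adjusted p = 7.08e-09). Groups kept apart in both tables for 36.8% of all genes tested, and for 100% of the genes in each class called in both responses. For such genes, here and below, the lack of overlap therefore adds nothing to the calls. Gata4, a second GATA factor of endoderm, was at -3.73 ± 0.14 with Virma and -1.19 ± 0.11 with siIgf2bp3. The endoderm factor Sox7 stood at -4.43 ± 0.18 and -1.21 ± 0.14, and Sox17 at -2.85 ± 0.25 and -1.29 ± 0.21. Pdgfra, the receptor subunit also known as CD140a, had 95.5 and 107 CPM in cKO libraries, against 567 and 545 CPM in WT libraries, and 113 and 117 CPM in libraries labelled siIgf2bp3, against 203 and 251 CPM in siNC libraries. All 4 groups kept apart within their tables, with an interaction of -1.47 ± 0.15.

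A list of visceral endoderm genes, drawn up for uptake and transport, followed the same order. Of 15 tested, 9 fell with Virma and 8 with siIgf2bp3, 8 of them in both, at medians of -2.15 and -0.68. The 8 were Cubn, Lrp2, Amn, Dab2, Apoe, Amot, Rhox5 and Aqp8. Cubn, which encodes the scavenging receptor cubilin, had 47.5 and 42.1 CPM in cKO libraries, against 1226 and 1203 CPM in WT libraries, and 511 and 512 CPM in libraries labelled siIgf2bp3, against 1008 and 1209 CPM in siNC libraries. Both pairs of groups stood apart, more widely in the Virma table, and the interaction was -3.64 ± 0.13 (adjusted p = 3.32e-12). Its partner megalin, Lrp2, was at -4.54 ± 0.10 and -0.90 ± 0.08, and Dab2, the adaptor of these receptors, at -4.09 ± 0.13 and -0.68 ± 0.11. Aqp8, a water channel gene, had 0.877 and 1.27 CPM in cKO libraries, against 45.3 and 38.2 CPM in WT libraries, and 75.5 and 74.8 CPM in libraries labelled siIgf2bp3, against 164 and 178 CPM in siNC libraries, again without overlap. Amn, which anchors cubilin to the membrane, had 0.877 and 0 CPM in cKO libraries, against 14.98 and 18.01 CPM in WT libraries, and 30.9 and 28.02 CPM in libraries labelled siIgf2bp3, against 131 and 88.3 CPM in siNC libraries. Of 6 anterior visceral endoderm genes, 6 fell with Virma and 1 with siIgf2bp3. That one was the Wnt inhibitor gene Dkk1 (-4.13 ± 0.29 and -0.85 ± 0.24), whose siIgf2bp3 call was lost without siIgf2bp3 replicate 1 (-0.89), siIgf2bp3 replicate 2 (-0.81) or siNC replicate 1 (-0.62). Hesx1, a homeobox gene of the anterior visceral endoderm, had 1.27 and 0.0981 CPM in cKO libraries, against 34.3 and 29.5 CPM in WT libraries, and was at -0.56 ± 0.36 with siIgf2bp3 (adjusted p = 0.448).

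Basement membrane genes fell under both labels, by similar medians with TMM factors. Of 18 tested, 12 fell and 2 rose with Virma and 14 fell with siIgf2bp3, 12 of them in both, at medians of -0.95 and -1.01. The interaction passed for 4 members in the positive and 6 in the negative direction. Its median was 0.14 and became -0.13 when counts were corrected for GC content. With scaling to library totals it was 0.31, at medians of -0.77 with Virma and -1.01 with siIgf2bp3. With scaling to ribosomal protein genes it was 0.53, at medians of -0.54 and -1, and 9 members differed in the positive and 4 in the negative direction. The similarity of the medians therefore depended on the scaling. Col4a2, a type IV collagen chain, had 337 and 338 CPM in cKO libraries, against 1199 and 1193 CPM in WT libraries, and 623 and 606 CPM in libraries labelled siIgf2bp3, against 2225 and 1636 CPM in siNC libraries. It fell by 3.54-fold with Virma and 3.14-fold with siIgf2bp3, and the difference of -0.18 ± 0.15 did not pass (95% interval -0.48 to 0.13, adjusted p = 0.425). With GC correction the difference was -0.80, and without siNC replicate 1 it was -0.41, and both of these passed. The partner chain Col4a1 fell by 4.52-fold and 3.00-fold, a difference that passed (-0.59 ± 0.12, adjusted p = 0.0022) except with scaling to ribosomal protein genes (-0.19). The laminin chains fell under both labels, with Lamb1 at -2.28 ± 0.08 and -1.44 ± 0.07 and Lamc1 at -2.48 ± 0.07 and -1.09 ± 0.07. Lama1, the laminin alpha chain of early endoderm, was the most unequal of them. It had 108 and 113 CPM in cKO libraries, against 2194 and 2182 CPM in WT libraries, and 1456 and 1486 CPM in libraries labelled siIgf2bp3, against 3538 and 3737 CPM in siNC libraries. Its interaction was -3.01 ± 0.10, against -0.84 ± 0.10 for Lamb1 and -1.39 ± 0.10 for Lamc1.

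The collagen pair is shown by sequence because the genes lie head to head and their annotated starts overlap. In the GRCm38.p6 build of RefSeq, Col4a2 starts at base 11312805 of chromosome 8 on the plus strand and Col4a1 at base 11312826 on the minus strand, so the annotated transcripts share 22 positions. The plus strand is given 5′ to 3′ for chr8:11312777-11312854, with those shared positions in capitals.
Col4a1 and Col4a2 shared start: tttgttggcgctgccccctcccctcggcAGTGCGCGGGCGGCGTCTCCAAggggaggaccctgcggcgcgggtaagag
The stretch has a GC content of 73.1%. The deposited counts use another build, mm39, so the coordinates serve the sequence only, and because the strand setting of the counting is not given in the sources used here, reads over the shared bases cannot be assigned to either gene. The letters AGATAA, a form of the site bound by GATA factors, were searched on both strands of RefSeq promoter windows. Among genes with such a window, they occurred for 10 of 174 lower in both (5.75%) and 4 of 70 higher in both (5.71%). In the opposite classes they occurred for 5 of 50 genes higher with Virma (10.0%) and 9 of 142 lower with Virma (6.34%). Of all genes with a window, 833 of 10987 had them (7.58%).

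The basement membrane genes lower in both included enzymes that modify collagen. Of the genes that follow, P4ha1, P4ha2 and Sparc were already counted in that list, and P4hb was not. P4ha1 and P4ha2, the catalytic subunits of prolyl 4-hydroxylase, were at -1.74 ± 0.12 and -2.45 ± 0.12 with Virma and at -0.93 ± 0.12 and -1.15 ± 0.11 with siIgf2bp3. P4hb, protein disulfide isomerase and the other subunit of that enzyme, had 493 and 505 CPM in cKO libraries, against 785 and 804 CPM in WT libraries, and 780.2 and 809 CPM in libraries labelled siIgf2bp3, against 1293 and 1287 CPM in siNC libraries. Of the genes called in both in the same direction, its interaction had the interval nearest to 0 (0.03 ± 0.10, 95% interval -0.19 to 0.24). With GC correction the value was -0.17, and with ribosomal scaling it was 0.43 and passed. Sparc, a matrix glycoprotein that binds collagen, was at -0.90 ± 0.07 and -1.15 ± 0.07, a difference that passed with scaling to library totals (0.42) or ribosomal protein genes (0.65) and without siNC replicate 1 (0.29). Of 18 endoplasmic reticulum chaperone and unfolded protein response genes, 15 fell with Virma and 7 with siIgf2bp3. All 7 fell in both, and the medians were -0.66 and -0.28. Hsp90b1, the chaperone GRP94, was at -0.99 ± 0.08 and -0.31 ± 0.08, and Hyou1, an Hsp70 relative, at -0.37 ± 0.08 and -0.32 ± 0.08. The siIgf2bp3 calls of both were lost without either siIgf2bp3 library (-0.38 and -0.26 for Hsp90b1, -0.30 and -0.36 for Hyou1), and that of Hsp90b1 also without either WT library (-0.32 each). The Virma call of Hyou1 was lost with library totals (-0.19, adjusted p = 0.086), and its Virma change was 0.04 with ribosomal scaling. With counts scaled to ribosomal protein genes, 9 of the 18 fell with Virma and 4 with siIgf2bp3, and the list's interaction median turned to 0.21 against -0.19. With GC correction 12 fell with siIgf2bp3, and with DESeq2 10.

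Among the 223 genes lower in both, 91 fell further with Virma, 130 had no difference that passed, and 2 fell further with siIgf2bp3, namely Maged1 and Niban2. These were named after their values were seen. Maged1, a member of the MAGE family, was at -0.32 ± 0.09 and -0.72 ± 0.09 with an interaction of 0.40 ± 0.13 (adjusted p = 0.0315). Its Virma call was lost without cKO replicate 1 (-0.31) and with scaling to library totals (-0.14), and its Virma change was 0.09 with scaling to ribosomal protein genes. Niban2 was at -0.34 ± 0.11 and -0.85 ± 0.10, and its Virma call was lost without cKO replicate 1 or 2 or WT replicate 1 (-0.38, -0.36 and -0.31) and under both of those scalings (-0.16 and 0.07). The interaction no longer passed without cKO replicate 2, either WT library or either siIgf2bp3 library for Maged1 (0.33 to 0.45), nor with GC correction (0.24). That of Niban2 no longer passed without any library but WT replicate 1 and siNC replicate 2 (0.37 to 0.55). Hkdc1, a hexokinase domain gene, had the largest smaller change of the class among genes of at least 10 CPM. It had 3.41 and 2.26 CPM in cKO libraries, against 43.8 and 36.6 CPM in WT libraries, and 24.3 and 21.5 CPM in libraries labelled siIgf2bp3, against 91.5 and 81.5 CPM in siNC libraries. Nxf7, of the nuclear RNA export factor family, fell by 14.5-fold and 2.85-fold. Cemip, involved in hyaluronan breakdown, fell by 5.08-fold and 2.68-fold.

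**Figure D2:**
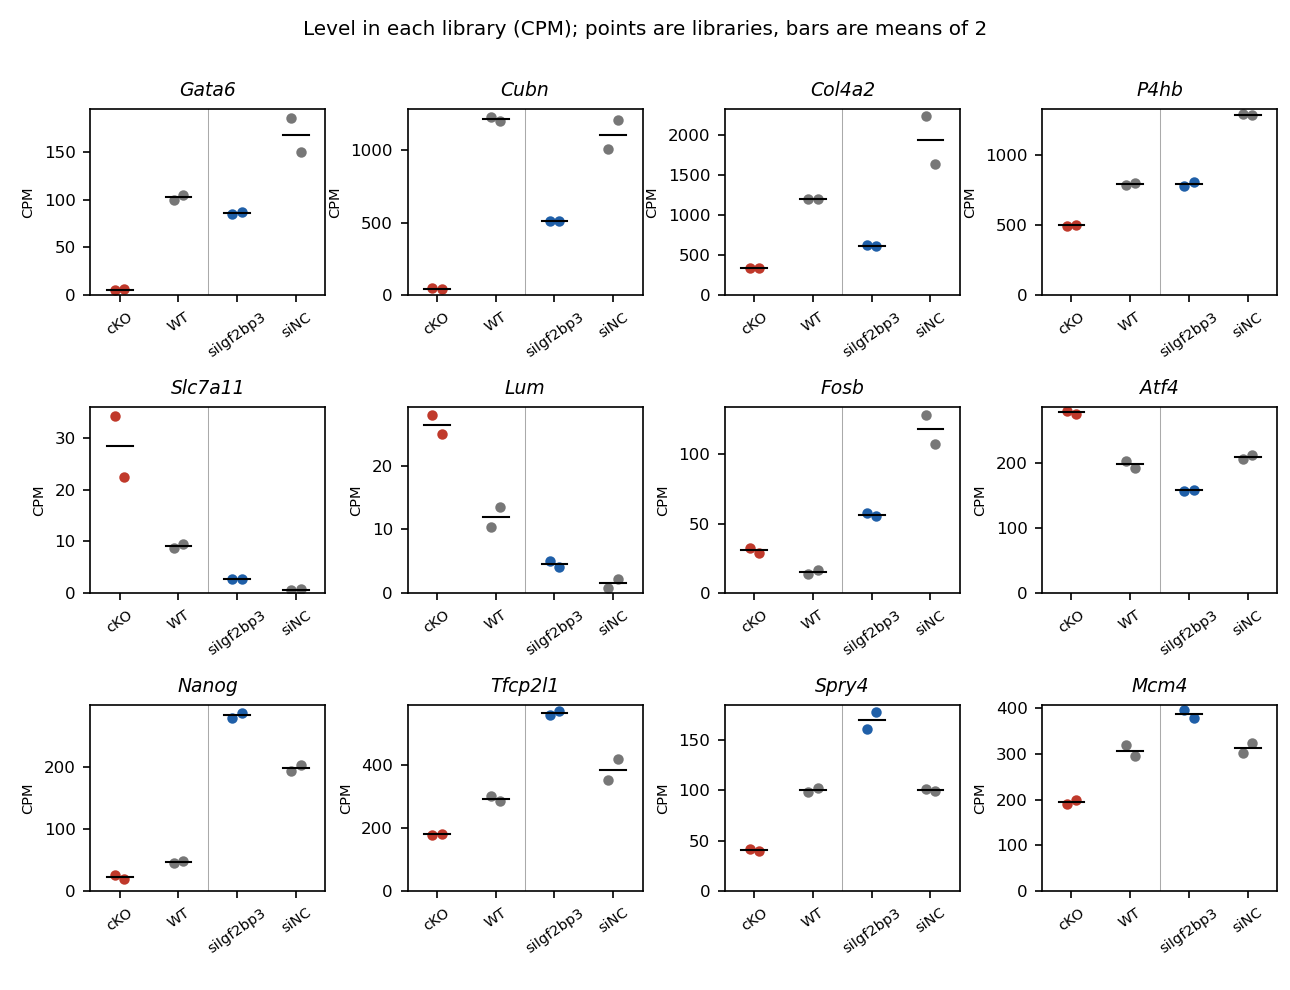
Each panel gives 1 gene, with the level in CPM of every library on the y axis and the groups cKO, WT, siIgf2bp3 and siNC along the x axis, where points are libraries and bars the means of 2. Gata6 and Cubn are near 0 in cKO libraries and lower in siIgf2bp3 than in siNC libraries, P4hb falls in both, and Fosb, Atf4, Nanog, Tfcp2l1, Spry4 and Mcm4 move in opposite directions.

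The 87 genes higher in both included receptors, chemokines and matrix genes. Slc7a11, the cystine transporter subunit, had 34.4 and 22.5 CPM in cKO libraries, against 8.66 and 9.56 CPM in WT libraries, and 2.73 and 2.77 CPM in libraries labelled siIgf2bp3, against 0.618 and 0.727 CPM in siNC libraries. Neither pair of groups overlapped, and its siIgf2bp3 call (2.01 ± 0.46) was lost without siIgf2bp3 replicate 1 (2.02), siIgf2bp3 replicate 2 (1.99) or siNC replicate 1 (1.90). The interleukin receptor genes Il1rl1 and Il1r1 were at 1.27 ± 0.19 and 1.23 ± 0.20 with Virma and at 2.17 ± 0.37 and 1.65 ± 0.26 with siIgf2bp3. The chemokine gene Ccl11 had 149 and 159.9 CPM in cKO libraries, against 64.5 and 68.8 CPM in WT libraries, and 5.77 and 6.53 CPM in libraries labelled siIgf2bp3, against 1.65 and 1.04 CPM in siNC libraries. It was the single member that rose further with siIgf2bp3 (-0.97 ± 0.31, adjusted p = 0.0321), and 12 members rose further with Virma. The difference of Ccl11 no longer passed without cKO replicate 1, either siIgf2bp3 library or siNC replicate 2 (-1.06 to -0.67), with GC correction (-0.80), or with scaling to library totals (-0.80) or ribosomal protein genes (-0.57). Of 18 feeder fibroblast markers, 17 rose with Virma and 3 with siIgf2bp3 (Lum, Dcn and Prrx1), at medians of 1.26 and 0.32, and 9 differed. None of the 18 was at 0 in any library. Together they took 0.309% and 0.298% of the counts in cKO libraries, against 0.111% and 0.111% in WT libraries, and 0.0799% and 0.0779% in libraries labelled siIgf2bp3, against 0.0824% and 0.0671% in siNC libraries. The part of feeder cells in the genes higher in both was not tested. Lum, a collagen-binding proteoglycan, had 27.9 and 25.01 CPM in cKO libraries, against 10.3 and 13.4 CPM in WT libraries, and 5.03 and 4.06 CPM in libraries labelled siIgf2bp3, against 0.824 and 2.18 CPM in siNC libraries. Its groups did not overlap, and its siIgf2bp3 call was lost without cKO replicate 1 (1.57), siIgf2bp3 replicate 1 (1.42) or 2 (1.73) or siNC replicate 1 (1.05). Its Virma call was lost without cKO replicate 1 (1.03). In the siIgf2bp3 table, Slc7a11, Il1rl1, Il1r1, Ccl11 and Lum stayed below 10 CPM in every library. They reached the mean of 10 CPM asked of named genes through the Virma table.

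Of the m6A machinery, 1 of 11 writer genes and 1 of 14 reader and eraser genes rose in both, beside 0.626% of all genes tested. With Virma, 1 writer gene rose and 2 fell, and 2 reader or eraser genes rose and 6 fell, beside 16.5% and 18.6% of all genes. With siIgf2bp3, 1 gene of each list rose and 0 fell. Wtap, the adaptor subunit of the writer complex, was at 0.58 ± 0.10 with Virma and 0.42 ± 0.11 with siIgf2bp3, and Ythdf2, a reader that promotes decay of methylated mRNA, at 1.13 ± 0.10 and 0.38 ± 0.11. Ythdf2 rose further with Virma (0.75 ± 0.15, adjusted p = 0.00145). With correction for GC content the siIgf2bp3 changes were 0.19 for Wtap and 0.28 for Ythdf2 and did not pass (adjusted p = 0.33 and 0.13). The siIgf2bp3 call of Wtap was also lost without cKO replicate 1, either siIgf2bp3 library or siNC replicate 1 (0.34 to 0.49), and that of Ythdf2 without any library but those of WT (0.33 to 0.41).

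Immediate early and stress genes were among the 58 that rose with Virma and fell with siIgf2bp3. Of 18 immediate early genes, 7 rose and 4 fell with Virma, beside 16.5% and 18.6% of all genes. With siIgf2bp3 8 of them fell, beside 3.04% of all genes, and 10 differed in the positive direction, at medians of 0.43 and -0.49. With GC correction 6 fell with siIgf2bp3 and 7 differed in that direction, at medians of 0.24 and -0.15. Fosb, an AP-1 subunit, had 32.6 and 28.9 CPM in cKO libraries, against 13.6 and 16.7 CPM in WT libraries, and 57.3 and 55.3 CPM in libraries labelled siIgf2bp3, against 128 and 107 CPM in siNC libraries. The groups did not overlap in either table, and the responses differed by 2.08 ± 0.21 (adjusted p = 3.49e-06). Fos, another AP-1 subunit, had 34.7 and 34.9 CPM in cKO libraries, against 21.7 and 16.4 CPM in WT libraries, and 53.7 and 53.4 CPM in libraries labelled siIgf2bp3, against 119 and 95.8 CPM in siNC libraries, a difference of 1.88 ± 0.22. Egr2, an early growth response factor, had 7.02 and 3.43 CPM in cKO libraries, against 1.17 and 2.75 CPM in WT libraries, and 5.66 and 4.85 CPM in libraries labelled siIgf2bp3, against 27.1 and 23.5 CPM in siNC libraries. Its Virma call was lost without cKO replicate 1 (0.73, adjusted p = 0.26) or WT replicate 1 (0.88, adjusted p = 0.13).

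Of 18 genes of the integrated stress response, 12 rose with Virma and 4 fell with siIgf2bp3, and 12 differed in the positive direction, at medians of 0.40 and -0.39. With GC correction 10 rose with Virma and the medians were 0.28 and -0.14, and with RLE factors or DESeq2 8 rose with Virma. Atf4, its central transcription factor, had 279 and 275 CPM in cKO libraries, against 203 and 192 CPM in WT libraries, and 157 and 158 CPM in libraries labelled siIgf2bp3, against 205 and 212 CPM in siNC libraries, without overlap. The interaction was 0.89 ± 0.12, and with GC correction the siIgf2bp3 change was -0.24 and did not pass (adjusted p = 0.099), as it did not without siIgf2bp3 replicate 1 (-0.40) or 2 (-0.41). Ddit3, the factor CHOP, was at 0.42 ± 0.16 and -0.95 ± 0.19, and the Virma call was lost without any library but those of siNC (0.27 to 0.51). Slc1a4, a neutral amino acid transporter, had 28.3 and 27.1 CPM in cKO libraries, against 12.9 and 11.6 CPM in WT libraries, and 29.8 and 33.3 CPM in libraries labelled siIgf2bp3, against 54.6 and 56.3 CPM in siNC libraries, and its siIgf2bp3 call was lost without siIgf2bp3 replicate 1 (-0.74). Of 19 p53 targets, 14 rose and 1 fell with Virma and 2 fell with siIgf2bp3. Those 2 were Bbc3, which encodes the apoptosis inducer PUMA (1.17 ± 0.28 and -0.81 ± 0.23), and the antiproliferative gene Btg2 (0.47 ± 0.17 and -0.63 ± 0.17). Both lost the siIgf2bp3 call without siIgf2bp3 replicate 1 or 2 or siNC replicate 1 (-0.82, -0.81 and -0.52 for Bbc3, -0.65, -0.63 and -0.71 for Btg2). Btg2 also lost it without siNC replicate 2 or either cKO library, and Bbc3 lost its Virma call without cKO replicate 2 (0.85) and Btg2 without either cKO library, WT replicate 1 or either siIgf2bp3 library (0.15 to 0.55). With GC correction the siIgf2bp3 change of Bbc3 was -0.33 (adjusted p = 0.496) and the Virma change of Btg2 was 0.42 (adjusted p = 0.0555), and that of Btg2 did not pass with RLE factors either (adjusted p = 0.067). Cdkn1a, the cell cycle inhibitor p21, was at 1.23 ± 0.13 and -0.40 ± 0.12 (adjusted p = 0.0613 for siIgf2bp3) and differed by 1.63 ± 0.18.

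Other members of the class were of mixed kinds. Arhgap8, a GTPase activating protein gene, had 19.97 and 17.2 CPM in cKO libraries, against 4.10 and 3.15 CPM in WT libraries, and 8.39 and 10.4 CPM in libraries labelled siIgf2bp3, against 17.9 and 18.2 CPM in siNC libraries, and differed by 3.30 ± 0.38. Its siIgf2bp3 call was lost without any of the 4 libraries of that table (-1.11 to -0.80). Col27a1, a fibrillar collagen, and Timp3, an inhibitor of matrix metalloproteinases, were at 0.99 ± 0.18 and 0.79 ± 0.20 with Virma and at -1.04 ± 0.19 and -0.82 ± 0.22 with siIgf2bp3. Krt8, a keratin of parietal and visceral endoderm, was at 0.71 ± 0.17 and -0.61 ± 0.17. The siIgf2bp3 call was lost without either siIgf2bp3 library for Col27a1 (-1.10 and -0.99), without any library of that table for Timp3 (-0.90 to -0.76), and for Krt8 without either siIgf2bp3 library, siNC replicate 1 or either cKO library (-0.68 to -0.44). Krt8 also lost its Virma call without cKO replicate 1 (0.57) or WT replicate 2 (0.46). With GC correction the siIgf2bp3 changes of Krt8 (-0.39, adjusted p = 0.175) and Arhgap8 (-0.85, adjusted p = 0.0504) did not pass. The parietal endoderm list of 12 had 6 members rising and 1 falling with Virma, beside 16.5% and 18.6% of all genes. With siIgf2bp3 3 members fell, beside 3.04% of all genes.

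Pluripotency, growth factor and replication genes were among the 181 that fell with Virma and rose with siIgf2bp3. Of 16 naive pluripotency genes, 12 fell with Virma, while 4 rose and 1 fell with siIgf2bp3, and 13 differed in the negative direction, at medians of -0.90 and 0.29. Nanog, a factor of naive cells and epiblast, had 25.6 and 19.5 CPM in cKO libraries, against 45.5 and 48.6 CPM in WT libraries, and 279 and 286 CPM in libraries labelled siIgf2bp3, against 192 and 203 CPM in siNC libraries. Neither pair overlapped and the responses differed by -1.58 ± 0.17 (adjusted p = 4.49e-06), although the siIgf2bp3 call was lost without either siIgf2bp3 library (0.53 and 0.49). Tfcp2l1, another naive factor, had 177 and 182 CPM in cKO libraries, against 299 and 284 CPM in WT libraries, and 557 and 570.1 CPM in libraries labelled siIgf2bp3, against 352 and 417 CPM in siNC libraries, and kept both calls in each fit without a library. Zfp42, the marker Rex1, was at -0.73 ± 0.09 and 0.43 ± 0.09, with a siIgf2bp3 call lost without either siIgf2bp3 library (0.39 and 0.46). Klf5 was the exception, lower in both (-1.69 ± 0.10 and -0.35 ± 0.10), with a siIgf2bp3 call that was lost without either cKO library, either siIgf2bp3 library or siNC replicate 1 (-0.37 to -0.18). Of 12 core pluripotency genes, 7 fell with Virma and 4 rose with siIgf2bp3, with 3 in both, L1td1, Tdgf1 and Dppa2. Tdgf1, the Nodal co-receptor, had 49.98 and 59.7 CPM in cKO libraries, against 204 and 195 CPM in WT libraries, and 477 and 486 CPM in libraries labelled siIgf2bp3, against 294 and 355 CPM in siNC libraries, a difference of -2.43 ± 0.15. Pou5f1 fell with Virma (-0.75 ± 0.09) and was at -0.07 ± 0.09 with siIgf2bp3 (adjusted p = 0.764). Sox2 passed in neither, at -0.11 ± 0.14 and 0.04 ± 0.14. With ribosomal scaling the Virma median of the core list was 0.04, with 3 falling and 1 rising.

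Spry4, a feedback inhibitor of FGF signalling, had 41.7 and 39.3 CPM in cKO libraries, against 97.6 and 102 CPM in WT libraries, and 161 and 178 CPM in libraries labelled siIgf2bp3, against 101 and 98.6 CPM in siNC libraries. It differed by -2.06 ± 0.15, kept both calls in each fit without a library, and was the 1 member with opposite calls of 14 FGF and ERK targets. Of the 14, 5 rose and 3 fell with Virma, and 4 rose with siIgf2bp3, beside 16.5%, 18.6% and 3.45% of all genes. Bmp4, a BMP ligand, had 15.8 and 17.7 CPM in cKO libraries, against 37.8 and 34.6 CPM in WT libraries, and 57.6 and 68.02 CPM in libraries labelled siIgf2bp3, against 36.9 and 38.97 CPM in siNC libraries, a difference of -1.84 ± 0.22. Its siIgf2bp3 call was lost without siIgf2bp3 replicate 2 (0.59) or siNC replicate 1 (0.68). The imprinted gene Peg10 had 260.4 and 255 CPM in cKO libraries, against 656 and 661 CPM in WT libraries, and 735 and 746 CPM in libraries labelled siIgf2bp3, against 517 and 529.6 CPM in siNC libraries, a difference of -1.85 ± 0.11.

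Enox1, which encodes a cell surface oxidase, had 6.43 and 8.63 CPM in cKO libraries, against 22.4 and 18.1 CPM in WT libraries, and 24.3 and 21.98 CPM in libraries labelled siIgf2bp3, against 8.96 and 9.66 CPM in siNC libraries. It was the 1 gene of the 181 to pass 1 log2 unit in both responses, and its siIgf2bp3 call was lost without siIgf2bp3 replicate 1 (1.23, adjusted p = 0.088). Of 182 tested genes named Zfp500 to Zfp999, 20 rose and 21 fell with Virma, smaller shares than the 16.5% and 18.6% of all genes. With siIgf2bp3 11 rose and 1 fell, beside 3.45% and 3.04% of all genes. With GC correction 6 of the 182 rose and 2 fell with siIgf2bp3, and the list's median siIgf2bp3 change was 0.13 against 0.22. The excess of rising members was therefore not kept with that correction. The members with opposite calls were Zfp988 (-0.82 ± 0.21 and 1.57 ± 0.33) and Zfp990, which had 30.6 and 24.4 CPM in cKO libraries, against 88.4 and 90.04 CPM in WT libraries, and 56.8 and 44.6 CPM in libraries labelled siIgf2bp3, against 27.6 and 34.3 CPM in siNC libraries. Both lost the siIgf2bp3 call without siIgf2bp3 replicate 1 or siNC replicate 1 (1.42 and 1.51 for Zfp988, 0.52 and 0.56 for Zfp990). With GC correction the siIgf2bp3 change of Zfp990 was 0.38 (adjusted p = 0.127), and with ribosomal scaling the Virma change of Zfp988 was -0.41 (adjusted p = 0.137), so neither kept its opposite calls. The lysosomal mannosidase gene Manba (-0.95 ± 0.14 and 0.80 ± 0.12) and Mylpf, a myosin light chain (-1.10 ± 0.15 and 0.76 ± 0.14), kept both calls in each fit without a library.

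Of 16 genes of the MCM helicase and replication, 12 fell with Virma and 5 rose with siIgf2bp3, all 5 of them with opposite calls, and 13 differed in the negative direction. Mcm4, a helicase subunit, had 191 and 198 CPM in cKO libraries, against 319 and 295 CPM in WT libraries, and 397 and 379 CPM in libraries labelled siIgf2bp3, against 302 and 325 CPM in siNC libraries. Pcna, the sliding clamp of DNA polymerase, was at -0.48 ± 0.09 and 0.47 ± 0.09, and Tyms, thymidylate synthase, at -0.46 ± 0.12 and 0.43 ± 0.12. The siIgf2bp3 changes of Mcm4 and Tyms lost their call without any library but siNC replicate 2 (0.25 to 0.33 for Mcm4, 0.35 to 0.45 for Tyms), and that of Pcna without siIgf2bp3 replicate 2 (0.42). With ribosomal scaling 1 member fell and 1 rose with Virma, and 1 rose with siIgf2bp3, while with DESeq2 8 rose with siIgf2bp3. Of 85 ribosomal protein genes, 68 fell and 1 rose with Virma and 7 rose with siIgf2bp3, and the 7 fell with Virma, Rpl35a among them (-0.74 ± 0.09 and 0.35 ± 0.09). Scaled to library totals 38 fell with Virma, and the number that rose with siIgf2bp3 was 3 with RLE factors, 12 with DESeq2 and 14 with GC correction. The siIgf2bp3 call of Rpl35a was lost without cKO replicate 1, either WT library, either siIgf2bp3 library or siNC replicate 1 (0.28 to 0.40). With GC correction the siIgf2bp3 changes of Mcm4 (0.20, adjusted p = 0.108), Tyms (0.34, adjusted p = 0.0786) and Rpl35a (0.22, adjusted p = 0.142) did not pass. The 13 mitochondrially encoded genes took 2.72% and 2.59% of the counts of cKO libraries, against 2.43% and 2.38% of WT libraries, and 0.793% and 0.696% in libraries labelled siIgf2bp3, against 0.389% and 0.538% in siNC libraries. Of these, 6 rose with siIgf2bp3, beside 3.45% of all genes. With Virma 2 rose and 1 fell, beside 16.5% and 18.6% of all genes. The gene mt-Co1, for a subunit of cytochrome c oxidase, moved in opposite directions (-0.84 ± 0.11 and 0.55 ± 0.11). Its siIgf2bp3 call was lost without siIgf2bp3 replicate 1 (0.46).

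**Figure D3:**
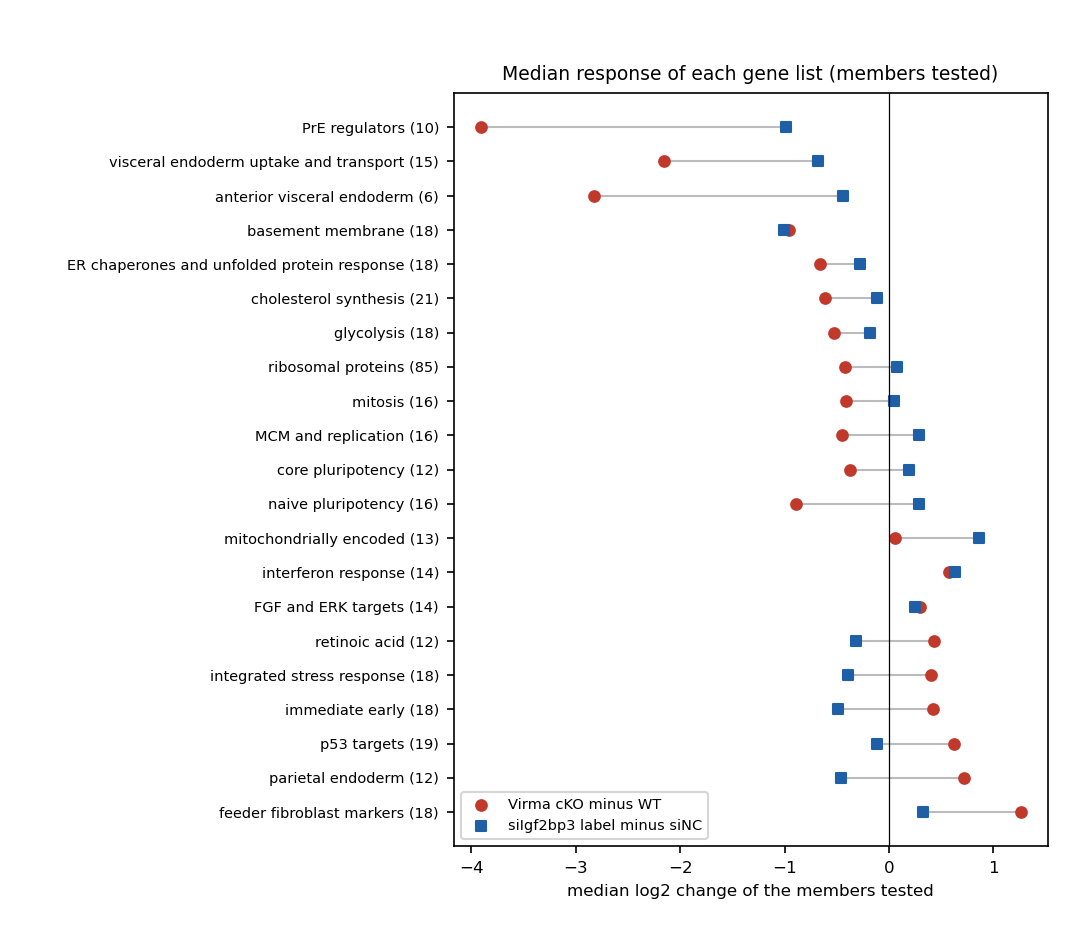
Each row is a gene list with the number of members tested, and the x axis gives the median log2 change of those members, as a circle for Virma cKO minus WT and a square for siIgf2bp3 minus siNC. The PrE and visceral endoderm lists have both medians below 0, and with TMM factors the basement membrane medians lie close together near -1.0. The naive pluripotency, replication, stress and immediate early lists have medians on opposite sides of 0.

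Of the genes whose responses differed, a further 1043 rose and 1347 fell with Virma without passing with siIgf2bp3, and 213 passed with siIgf2bp3 and not with Virma. Dppa5a, a naive pluripotency marker, had 175 and 171 CPM in cKO libraries, against 408 and 409.7 CPM in WT libraries, and 511 and 533 CPM in libraries labelled siIgf2bp3, against 467 and 554 CPM in siNC libraries, groups that overlapped in the siRNA table alone, and differed by -1.28 ± 0.12. Morc1, which silences transposons in germ cells, had 4.48 and 2.35 CPM in cKO libraries, against 41.4 and 32.97 CPM in WT libraries, and was at 0.35 ± 0.19 with siIgf2bp3 (adjusted p = 0.367). Slc48a1, a haem transporter gene, had 20.1 and 15.00 CPM in cKO libraries, against 3.28 and 2.44 CPM in WT libraries, and 20.2 and 20.5 CPM in libraries labelled siIgf2bp3, against 19.5 and 19.5 CPM in siNC libraries, an interaction of 2.56 ± 0.36. Grik5, a kainate receptor subunit, was at 2.50 ± 0.43 with Virma and -0.57 ± 0.33 with siIgf2bp3 (adjusted p = 0.39). A further 1942 genes passed with Virma and 139 with siIgf2bp3 alone without a difference that passed, and they are not shown to be particular to either label.

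The classes were then read in libraries that did not define them. In sorted cells, 28.3% of genes tested were higher and 29.5% lower in PrE-E than in EPI-E. Of the 223 genes lower in both, 214 were higher in PrE-E and 4 lower, at a median of 3.29. Of 80 tested genes higher in both, 11 were higher and 50 lower in PrE-E (median -0.96). Of 56 tested genes higher with Virma and lower with siIgf2bp3, 37 were higher and 7 lower in PrE-E (median 1.6), and of the 181 with the reverse pattern 8 were higher and 148 lower (median -0.78). The median siIgf2bp3 change and the median PrE-E difference had opposite signs in each of the 4 classes. Over 12208 genes the Spearman correlation with the PrE-E difference was -0.18 for the Virma and -0.36 for the siIgf2bp3 response. Within 5 bins of GC content, of near-equal size, it ran from -0.25 to -0.10 for Virma and from -0.46 to -0.35 for siIgf2bp3. Gata6 was at 7.23 and Cubn at 10.5 in PrE-E over EPI-E, whereas Nanog was at -6.66 and Tdgf1 at -7.55. Induction of PrE in EPSCs, PrEdiff over EPS before actinomycin D, raised 203 and lowered 15 of the 223, and raised 10 and lowered 164 of 180 tested genes lower with Virma and higher with siIgf2bp3, beside 40.9% of all genes raised and 41% lowered.

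In the Mettl3 table, where 2.51% of genes rose and 1.44% fell in the libraries labelled cKO, 92 of the 223 genes lower in both fell and 0 rose. Of the 87 genes higher in both, 33 rose and 0 fell. In the opposite classes the counts were 3 rising and 0 falling of 58, and 3 rising and 1 falling of 181. Class medians were -0.25, 0.16, 0.03 and 0.01 in that order. Gata6 (-0.45), Cubn (-0.57) and Lama1 (-0.44) fell in that table, while Nanog was at 0.09 (adjusted p = 0.639) and Fosb at -0.17 (adjusted p = 0.668). After 2 h of actinomycin D, relative to the average transcript of PrE-induced cultures, 35% of genes were higher and 35.5% lower. Of the genes lower in both, 109 were higher and 86 lower at 2 h (median 0.10), and of 84 tested genes higher in both 19 were higher and 40 lower (median -0.21). The opposite classes had medians of -0.04 and 0.01. Fos was at -2.36 and Spry4 at -1.95 after 2 h, and Gata6 at -1.16.

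**Figure D4:**
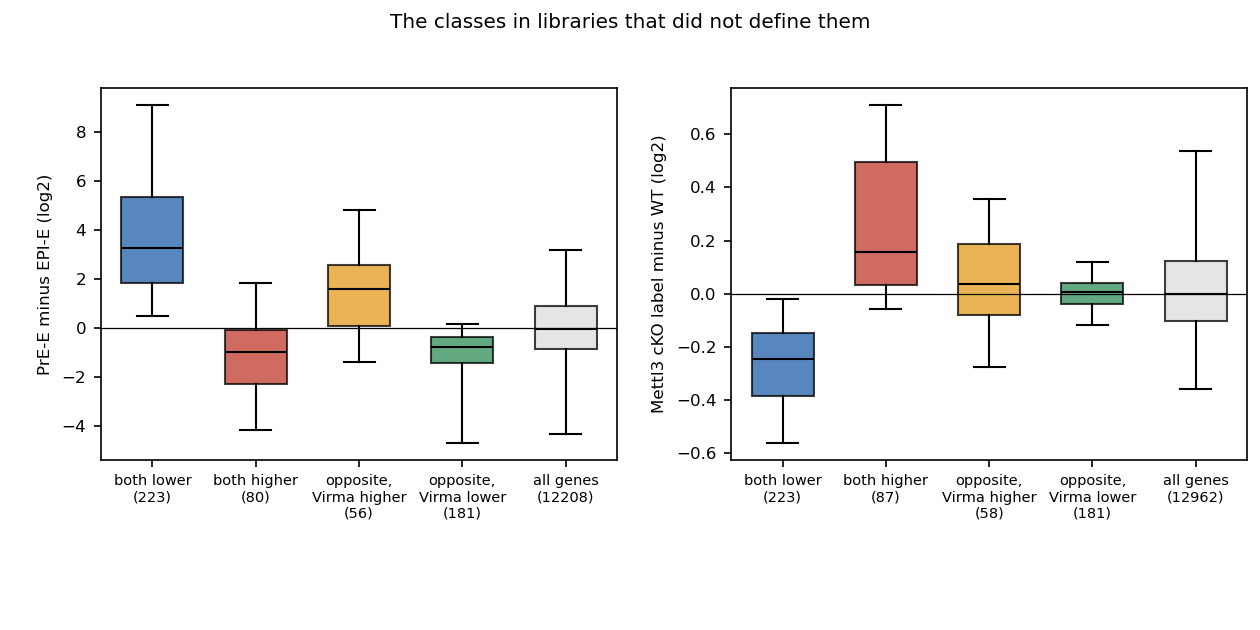
Boxes give the log2 change of the genes of each class in libraries that did not define the classes, with PrE-E minus EPI-E on the left and Mettl3 cKO minus WT on the right; lines are medians, boxes the middle 50% and whiskers the 5th to 95th percentile. Genes lower in both sit above 0 in PrE-E and below 0 in the Mettl3 table, and both opposite classes centre near 0 in the Mettl3 table.

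Base composition differed between the classes. Median GC content of the longest transcript was 52.8% for genes lower in both, 45.6% for those higher in both, 55.9% for those higher with Virma and lower with siIgf2bp3, and 44.4% for those with the reverse pattern, against 50.1% for all genes. GC content was known for 13587 of the genes (97.7%). Its Spearman correlation was 0.11 with the Virma response, -0.43 with the siIgf2bp3 response and 0.29 with the interaction. Of the 181 genes, 81 lay in the bin of lowest GC content and 1 in the highest, while of the 58 genes 1 lay in the lowest and 30 in the highest. When counts were corrected for GC content, 179 of the 223, 58 of the 87, 22 of the 58 and 99 of the 181 kept both calls, and 222, 87, 58 and 181 kept both signs. The GGACT motif, a common m6A context, occurred at medians of 1.10, 0.92, 1.18 and 0.863 per kb in the classes in that order, against 1.04 for all genes.

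**Figure D5:**
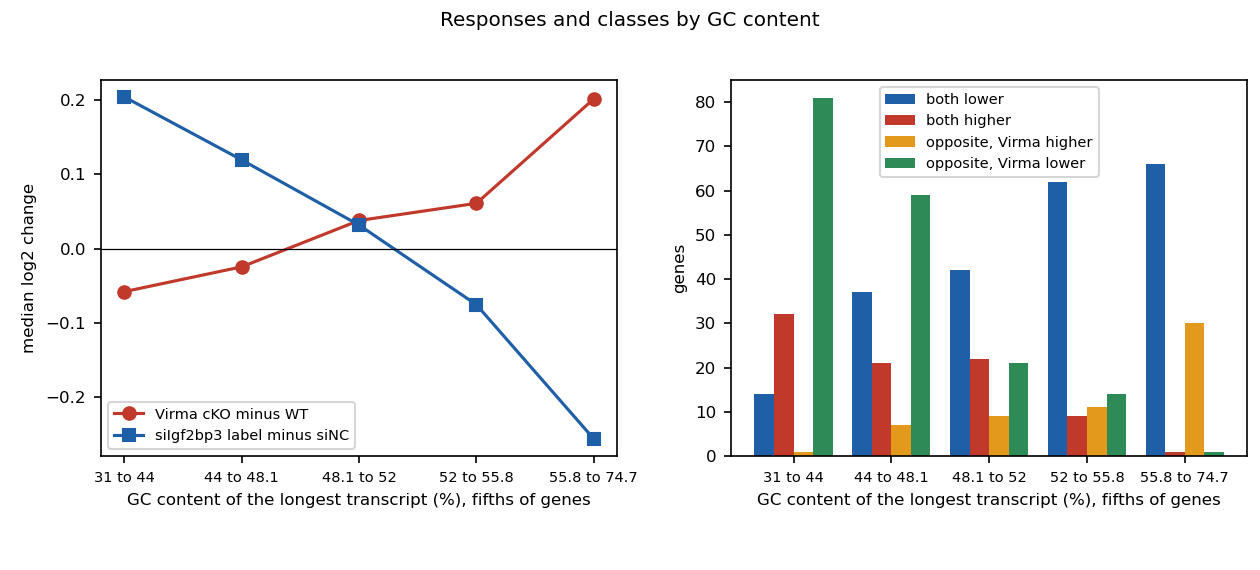
The left plot gives the median log2 change of each response in 5 bins of genes by transcript GC content, and the right plot counts the genes of each class in those bins. The median siIgf2bp3 change falls to -0.26 in the highest bin, against 0.20 in the lowest, and the 181 genes lower with Virma and higher with siIgf2bp3 gather at low GC content.

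The classes also rested unequally on single libraries and on scaling. Spread between the 2 libraries of a group, as chi-square per degree of freedom over genes, was 1.99 for siIgf2bp3 and 9.23 for siNC. It was 6.72 for cKO and 6.07 for WT. The groups shared an estimate of spread for each gene, so leaving out a library changed which pairs supplied it. How far this set the counts below was not tested. Both calls were kept in all 8 fits that left out 1 library by 73 of the 223 genes lower in both, 9 of the 87 higher in both, 4 of the 58 and 15 of the 181. Those 73 kept both calls with GC correction as well, and 71 of them did so with ribosomal scaling too, among them Gata6, Gata4, Sox17, Sox7, Pdgfra, Dab2, Cubn, Lrp2, Lama1, Lamb1, Lamc1, Col4a1, Col4a2 and P4hb. The members of the opposite classes that kept both calls in the same fits were Fos, Fosb and App among the 58, and Spry4, Tdgf1, Tfcp2l1, Peg10, Manba, Mylpf, Tle4 and Tmsb4x among the 181; App, Tle4 and Tmsb4x were named after their values were seen. Without siIgf2bp3 replicate 1, 79 genes were lower in both, 16 higher in both, 5 higher with Virma and lower with siIgf2bp3, and 21 the reverse. Without siNC replicate 2 these counts were 385, 135, 146 and 426. Scaling to ribosomal protein genes moved the median Virma change of all genes to 0.44, against 0.02 with TMM factors, and left 29 genes lower with Virma and higher with siIgf2bp3 and 133 lower in both. Of the 181, 120 kept both signs under that scaling.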

How the data were processed

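Libraries were prepared with a SMARTer Stranded or a VAHTS kit, per the labels' protocols; which kit made which library, the strand setting and the annotation are not given in the sources used here. The authors deposited raw counts per gene in a table for each experiment, and FastQC 0.12.1, Trim Galore, STAR 2.7.11b, Subread, DESeq2 and the build mm39 are named, per the submitters' processing notes. Total counts of 8160276 to 12250333 per library set the precision.

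From these counts the Virma and siIgf2bp3 tables were joined on gene symbol and filtered with filterByExpr (minimum count 10, minimum total 15). A model with 4 group means was fitted with edgeR 4.0.16 (limma 3.58.1, R 4.3.3) using TMM factors and the robust quasi-likelihood test, with Benjamini-Hochberg adjustment over all genes at 0.05 for each contrast. The sorted, actinomycin D and Mettl3 tables were fitted separately. GC content came from GENCODE transcripts of another build, by symbol. On simulated counts the interaction test recovered 8% of changed genes at 0.5 log2, 58% at 1 and 92% at 2 (200 changed genes in each simulation, 13581, 13578 and 13556 genes). Changes were placed in the cKO group only and in genes above a minimum level. They were far fewer than the 23.28% of genes whose interaction passed here. The adjusted threshold depends on that share, so the recovery does not give the sensitivity in these data.

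Members and lists were chosen with earlier results of these data known. Named genes were a fixed set, the 10 genes of each class with the largest smaller change and the 8 largest interactions in each direction. The 5 most nearly equal and up to 5 members of each of 35 lists were added, and not all are printed. Outside the fixed set and the lists, genes needed a mean of at least 10 CPM over the 8 libraries. Either table alone could supply that mean. These genes also needed groups that did not overlap in each response that was called. Replicate numbers were not taken as pairs: deviations of same-numbered libraries correlated at 0.00234 in the Virma and -0.119 in the siIgf2bp3 table over 8975 genes. Alternatives were RLE, library-total and ribosomal scaling, DESeq2 1.42.0, other filters, a replicate block, GC offsets, separate fits, thresholds and leaving out each library.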

Additional observations from a re-analysis of the deposited data

Results flagged for a closer look

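The responses of 3 genes moved by over 1 log2 unit in opposite directions under the Virma and siIgf2bp3 labels, and the difference itself passed edgeR's quasi-likelihood test. The interaction was 2.08 for Fosb and 3.65 for Egr2, both higher in cKO than in WT libraries and lower in the libraries labelled siIgf2bp3 than in siNC. It was -2.74 for Enox1, lower in cKO than in WT libraries and higher in the libraries labelled siIgf2bp3 than in siNC. The Virma change of Fosb was 1.02 with TMM factors and 0.97 with RLE factors. With GC correction Fosb was at 0.87 with Virma and -0.88 with siIgf2bp3. Its calls were kept, but it did not pass 1 log2 unit in both responses under either alternative.
The Virma call of Egr2 was lost without cKO replicate 1 (0.73) or WT replicate 1 (0.88), and the siIgf2bp3 call of Enox1 without siIgf2bp3 replicate 1 (1.23).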

How the results depend on the processing

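The counts in the order interaction positive and negative, Virma higher and lower, siIgf2bp3 higher and lower, both higher, both lower, opposite with Virma higher and opposite with Virma lower ranged, leaving out each library, from 639 to 1427, 1215 to 2024, 1616 to 2257, 2022 to 2790, 62 to 869, 104 to 802, 16 to 135, 79 to 385, 5 to 146 and 21 to 426. Scaling to library totals gave 1905 positive and 1194 negative interactions, 3317 genes higher and 1521 lower with Virma, and 96 opposite with Virma lower. With TMM factors the interactions were 1292 and 1945 and the Virma calls 2299 and 2582. Which direction held more genes therefore depended on the scaling. Ribosomal scaling gave 3200 positive and 555 negative interactions, 5323 higher and 769 lower with Virma, 144 both higher, 133 both lower, and 106 and 29 opposite. Without a filter 659 genes were lower with siIgf2bp3 and 106 opposite with Virma higher. The replicate block left 240 higher and 267 lower with siIgf2bp3, 47 both higher, and 29 and 84 opposite; same-numbered libraries share only a number, and with it the interactions of Maged1 (0.40) and Ccl11 (-0.97) no longer passed. Crossing the numbers of the siIgf2bp3 table, chosen after seeing the data, gave 97 both higher, 239 both lower, and 56 and 218 opposite. GC correction left 28 opposite with Virma higher, and GC correction with the replicate block 23, with 310 higher with siIgf2bp3. A minimum of 0.5 log2 left 1708 lower with Virma, 191 higher with siIgf2bp3, 42 both higher, and 35 and 35 opposite. A minimum of 1 left interactions of 797 and 566, Virma calls of 1113 and 625, siIgf2bp3 calls of 29 and 77, 16 both higher, 47 both lower, and 2 and 1 opposite. A threshold of 0.01 left interactions of 607 and 1192, 1283 higher with Virma, siIgf2bp3 calls of 134 and 187, 25 both higher, 113 both lower, and 10 and 46 opposite.

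Interactions that reversed did not pass the test where they did so. P4hb was at -0.0042 with RLE factors, -0.0043 with DESeq2 and -0.17 with GC correction, with or without the replicate block, and at -0.021 to 0.059 leaving out each library. Sox2 was at 0.027 with library totals, 0.25 with ribosomal scaling and -0.47 to 0.13 leaving out each library. Hyou1 was at 0.13, 0.35 and -0.11 to 0.011 in the same order. With ribosomal scaling Col4a2 was at 0.22 and Slc7a11 at 0.028, and leaving out each library Col4a2 was at -0.41 to 0.038 and Lum at -1.28 to 0.10. The cause of these shifts was not tested. With 2 libraries per group, small changes were not detectable for many genes.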
